A study of Mus musculus with 8 samples.

Results

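Chemokines are small secreted or membrane-tethered proteins that attract cells carrying the matching G protein-coupled receptor. The results describe 9 chemokine genes, picked by name, among the 24498 genes of the deposited expression table of the mouse dorsal hippocampus. Of the 9, 6 are inducible (Ccl5, Cxcl10, Cxcl9, Cxcl16, Ccl2 and Ccl12) and 3 are constitutive (Cx3cl1, Cxcl12 and Cxcl14), and each had its own entry in the table.

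The study asked how the enzyme ACSS2, which makes acetyl-CoA from acetate, acts on gene expression in the hippocampus with and without spatial learning. All mice were male C57BL/6J animals of 10 to 12 weeks whose dorsal hippocampus had been injected with an AAV2/9 vector. The knockdown vector (AAV2/9.U6.shACSS2.CMV.EGFP) carried a short hairpin RNA against Acss2 under the U6 promoter, and EGFP under the CMV promoter. The control vector (AAV2/9.CMV.EGFP.polyA) carried EGFP under the CMV promoter and no hairpin cassette, so EGFP and the injection were common to all groups and the controls lacked any hairpin. After 3 weeks, trained mice explored 3 objects in an arena in 3 trials of 6 min and were killed 30 min later, whereas untrained mice were home cage controls. The 4 groups were trained knockdown, untrained knockdown, trained control and untrained control, with 2 libraries of polyadenylated RNA each. Whether each library held RNA of 1 mouse or of a pool is not stated, so the p-values measure only the spread between these libraries, which may be technical.

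Chemokines differ in how they are made. Cx3cl1, Cxcl12 and Cxcl14 are expressed in the resting brain. Cxcl9 and Cxcl10 are classical interferon-response genes, and Ccl2 and Ccl5 are known targets of NF-kB and interferon regulatory factors. The inducible members bind receptors found mainly on leukocytes, and in the resting brain most of them are low. Cx3cl1 is known as a neuronal ligand of the microglial receptor Cx3cr1, and Cxcl12 as a ligand of Cxcr4 that guides neuronal progenitors to the dentate gyrus.

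Depth differed strongly between libraries. Libraries are named by the end of their column names. In the trained knockdown group, KD.249 held 8541894 reads in genes and KD.251 held 1484318. In the untrained knockdown group, KD.253 held 6537749 and KD.255 held 272456. The controls held between 7552478 and 9863728. The deposited values are normalized read counts, that is, reads divided by a size factor of the library. Dividing each column by its smallest value above 0 gave back whole reads. Each read thus stood for 15.6 normalized counts in KD.255, 2.88 in KD.251 and 0.444 to 0.659 elsewhere. A count of 0 allows up to 3 reads, which is 46.7 normalized counts in KD.255, 8.65 in KD.251 and at most 1.98 in any other library. The bars of the plots end at the same limit where a count is 0. Such limits, and the 95% intervals of read ratios below, cover counting error only. The targeted gene, Acss2, had 25.6 and 57.7 normalized counts in KD.249 and KD.251 and 25.0 and 15.6 in KD.253 and KD.255, against 87.4, 67.5, 58.2 and 82.0 in the controls. Its log2 difference, knockdown minus control averaged over training, was -1.37 (limma adjusted p = 0.333), and its level in KD.251 (20 reads) lay just under that of the lowest control. Hippocampal principal neuron markers (Prox1, Wfs1 and Neurod6 first among 5) were present in every library. Choroid plexus markers, led by Ttr, summed to 58988 normalized counts in eGFP.250 and 15429 in eGFP.254, against 223 to 1875 in the other 6 libraries.

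The inducible chemokines were low in control hippocampus, with at most 9.8 normalized counts each in any control library. Ccl5 and Cxcl10 were higher in each of the 4 knockdown libraries than in any control library, and both passed the test across all genes. The other inducible members were above the controls in both deep knockdown libraries, but Cxcl9, Ccl12 and Ccl2 had no read in KD.251. Cxcl16 lay below the controls there on 2 reads, with a counting interval (0.699 to 20.8) that spanned them. Summed over the 6 inducible members, the normalized count was 368 in KD.249, 138 in KD.251, 339 in KD.253 and 342 in KD.255, against 13.3 to 17.4 in the 4 control libraries. The knockdown sums came from 719, 48, 514 and 22 reads, so that of KD.255 is uncertain, and the control sums from 26 to 36 reads. The sum of the 3 constitutive members was 1379, 1843, 2356 and 1695 in the same knockdown libraries, against 1455 to 2501 in the controls, so those ranges overlapped. In bulk tissue, more RNA per cell and more cells of a type cannot be told apart.

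**Figure D1:**
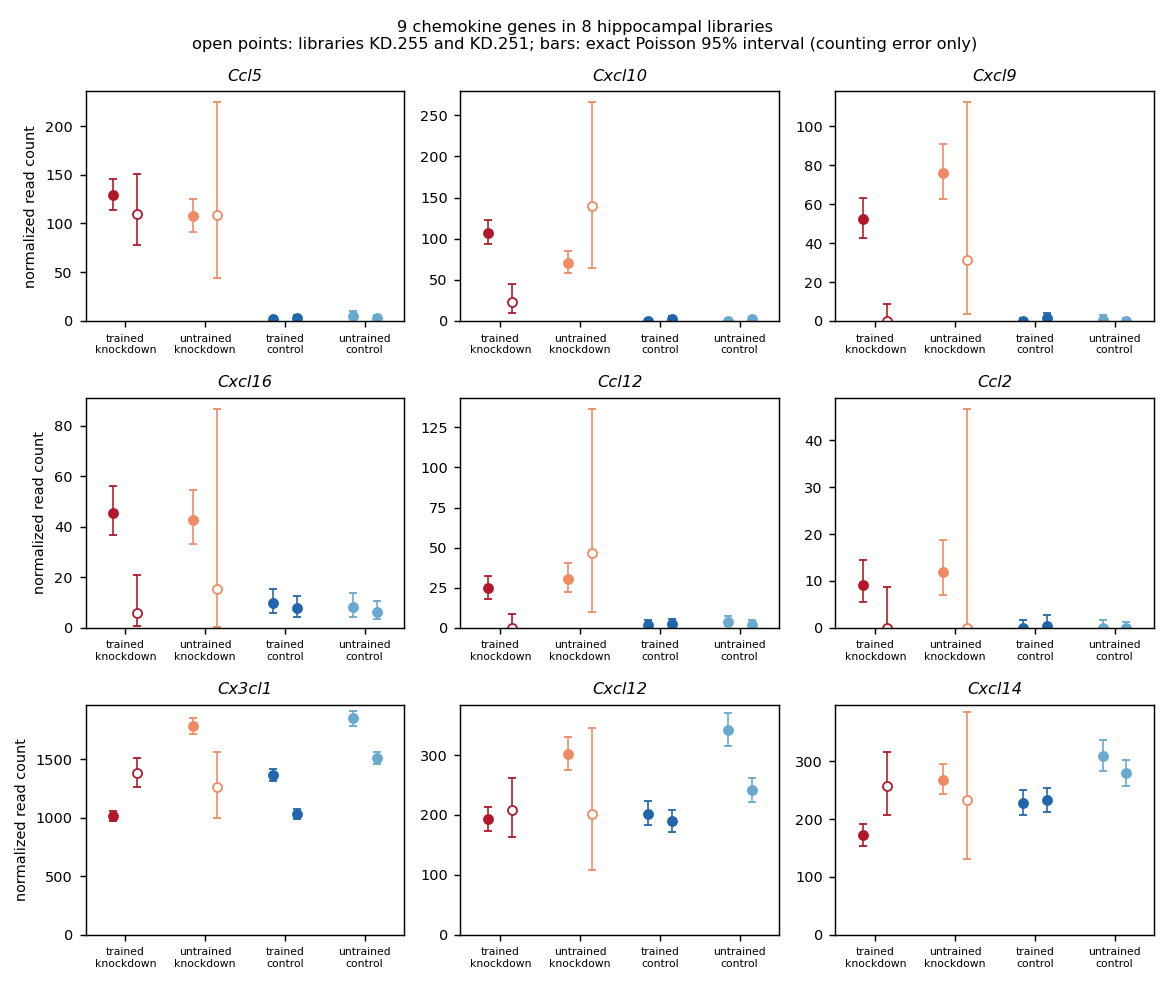
Normalized read count (linear vertical axis) of the 9 chemokine genes, 1 point per library, for trained knockdown, untrained knockdown, trained control and untrained control. Bars are exact Poisson 95% intervals, ending at 3 reads where the count is 0, which cover counting error only, and open points are the shallow libraries KD.251 and KD.255. The 4 knockdown points of Ccl5 lie between 107 and 129, above all controls, whereas the points of Cx3cl1 overlap between vectors.

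Ccl5 (RANTES), a ligand of Ccr1 and Ccr3 that attracts T cells and monocytes, gave the steadiest difference. The gene lies on chromosome 11 at 83525778 to 83530518, minus strand, in GRCm38 (the build called mm10), and is protein coding. Ccl5 had 252 reads in KD.249 and 38 in KD.251, and 163 in KD.253 and 7 in KD.255, against 3, 6, 9 and 7 reads in the control libraries eGFP.250, eGFP.266, eGFP.254 and eGFP.268. As normalized counts these were 129.0, 109.6, 107.4 and 108.9 in the knockdown libraries, against 1.6, 2.9, 5.2 and 3.1 in the controls. The groups did not overlap, and the 4 knockdown libraries sat close together although their depths differed widely. Ccl5 averaged 114 ± 10.2 normalized counts in knockdown libraries and 3.19 ± 1.52 in control libraries (SD, n = 4 each).

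Averaged over training, the log2 difference of Ccl5, knockdown minus control, was 4.84 (SE 0.37, limma adjusted p = 0.00213) on the log2(normalized count + 1) scale, which understates the change of a gene this low in the controls. edgeR on the recovered reads gave 5.18 (adjusted p = 1.33e-05). The call held in 18 of 19 alternatives. It was lost (log2 difference 4.84, adjusted p = 0.0713) when the set of library numbers was a term. All knockdown libraries and the controls eGFP.250 and eGFP.254 carry low numbers, whereas the controls eGFP.266 and eGFP.268 carry higher ones, and no label says what the numbers stand for. Pooled over libraries, 460 reads in the knockdown group stood against 25 in the control group, a ratio of 37.9 after scaling for depth (interval 25.4 to 59.2).

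Cxcl10 and Cxcl9 (IP-10 and MIG) are ligands of Cxcr3, a receptor of activated T cells and NK cells. They are neighbours on chromosome 5, Cxcl9 at 92321347 to 92328079 and Cxcl10 at 92346638 to 92348889, both protein coding on the minus strand of GRCm38. Cxcl10 had 210 and 8 reads in KD.249 and KD.251 and 107 and 9 in KD.253 and KD.255, against 1, 5, 0 and 5 in eGFP.250, eGFP.266, eGFP.254 and eGFP.268. The normalized counts were 107.5, 23.1, 70.5 and 140.0 in the knockdown libraries, against 0.5, 2.4, 0 and 2.2 in the controls. No knockdown library overlapped the controls, but KD.251 stood well below the other 3. Cxcl10 averaged 85.3 ± 50.2 normalized counts with the knockdown vector and 1.28 ± 1.20 with the control vector (SD, n = 4 each).

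The log2 difference of Cxcl10 was 5.15 (SE 0.72, limma adjusted p = 0.0336), and edgeR gave 5.78 (adjusted p = 0.000920). The limma call was lost whenever any of 6 libraries was left out. Its adjusted p was 0.425 without KD.249, 0.160 without KD.253, 0.147 without eGFP.250, 0.0590 without eGFP.266, 0.0789 without eGFP.254 and 0.112 without eGFP.268. It was 0.0100 without KD.251 and 0.0490 without KD.255. With the set of library numbers as a term it was 0.124, at a log2 difference of 5.86, and at a pseudocount of 0.5 in place of 1 it was 0.0718. The log2 difference stayed between 3.63 and 6.07 over the 18 alternatives in which Cxcl10 was tested. Pooled reads were 334 in the knockdown group and 11 in the control group, a ratio of 62.6 (interval 34.5 to 127). Cxcl10 shares 133 exon bases with Art3 on the opposite strand. Art3 had 11.8, 8.7, 13.2 and 15.6 normalized counts in the knockdown libraries, against 7.2, 6.2, 7.6 and 13.3 in the controls. Whether the counting used strand is not given in the sources used here.

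Cxcl9 was as unequal. It had 102 reads in KD.249, 0 in KD.251, 115 in KD.253 and 2 in KD.255, against 0, 3, 1 and 0 in eGFP.250, eGFP.266, eGFP.254 and eGFP.268. The normalized counts were 52.2, 0, 75.8 and 31.1 in the knockdown libraries, against 0, 1.4, 0.6 and 0 in the controls. The groups overlapped only through KD.251, where a count of 0 allows up to 8.65 normalized counts. Cxcl9 differed by 3.76 on the log2 scale (95% interval 0.63 to 6.90), which missed the limma threshold (adjusted p = 0.814) and passed in edgeR (6.31, adjusted p = 0.00504). Pooled reads were 219 in the knockdown group and 4 in the control group, a ratio of 113 (interval 43.4 to 418). Within the knockdown libraries the ratio of Cxcl9 to Cxcl10 was not fixed. It was 0.486 in KD.249, 1.075 in KD.253 and 0.222 in KD.255, the last from 2 and 9 reads.

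The stretch of 250 bases before the transcription start is printed for Cxcl10, Cxcl9 and Ccl12, which edgeR called, and for the constitutive Cxcl14, which it did not call. Interferon and NF-kB signalling are textbook inducers of Cxcl10. RefSeq promoters on GRCm38.p6 were found for 6 of the 9 members (Cxcl9, Cxcl10, Cxcl12, Cx3cl1, Ccl12 and Cxcl14). Ccl5, Cxcl16 and Ccl2 are named only. The sequences run 5′ to 3′ on the gene's strand, at chr5:92348890-92349139 (minus) for Cxcl10, chr5:92328080-92328329 (minus) for Cxcl9, chr11:82101595-82101844 (plus) for Ccl12 and chr13:56296552-56296801 (minus) for the constitutive Cxcl14. Capitals mark matches to any of 4 motifs.
Cxcl10: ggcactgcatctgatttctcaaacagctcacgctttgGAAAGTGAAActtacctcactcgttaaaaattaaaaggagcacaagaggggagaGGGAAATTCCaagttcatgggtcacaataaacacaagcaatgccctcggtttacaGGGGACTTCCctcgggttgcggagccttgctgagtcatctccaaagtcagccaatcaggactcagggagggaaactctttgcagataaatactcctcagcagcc
Cxcl9: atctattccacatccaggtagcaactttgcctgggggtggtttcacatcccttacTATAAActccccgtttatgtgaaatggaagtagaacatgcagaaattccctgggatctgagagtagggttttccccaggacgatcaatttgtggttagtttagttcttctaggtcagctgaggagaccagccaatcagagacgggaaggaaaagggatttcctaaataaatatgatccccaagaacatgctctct
Ccl12: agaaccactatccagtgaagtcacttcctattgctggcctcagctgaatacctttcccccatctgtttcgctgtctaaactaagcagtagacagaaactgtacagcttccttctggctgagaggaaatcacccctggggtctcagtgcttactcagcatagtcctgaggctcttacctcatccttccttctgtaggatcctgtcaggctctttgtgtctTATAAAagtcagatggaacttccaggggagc
Cxcl14: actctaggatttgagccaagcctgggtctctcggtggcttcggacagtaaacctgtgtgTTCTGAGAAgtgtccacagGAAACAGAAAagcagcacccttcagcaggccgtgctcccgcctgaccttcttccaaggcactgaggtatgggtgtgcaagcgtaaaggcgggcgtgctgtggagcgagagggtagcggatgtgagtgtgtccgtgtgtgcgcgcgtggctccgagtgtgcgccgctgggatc

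The motifs were searched on both strands: GAAANNGAAA (core of the interferon-stimulated response element), TTCNNNGAA (gamma-activated site), GGGNNNTTCC (an NF-kB site) and the core-promoter letters TATAAA. Cxcl10 held GAAAGTGAAA at 213 to 204 bases before the start and both GGGAAATTCC and GGGGACTTCC at 159 to 150 and 104 to 95 bases before it. Cxcl9 and Ccl12 held TATAAA only, at 195 to 190 and 31 to 26 bases before the start. Cxcl14, whose difference between vectors did not pass, held GAAACAGAAA and TTCTGAGAA at 172 to 163 and 191 to 183 bases before its start. Among all 32851 promoter windows of this length, 2.98% held GAAANNGAAA, 7.02% held TTCNNNGAA, 4.65% held GGGNNNTTCC and 12.4% held TATAAA. The Cxcl12 window held none of the 4 motifs, and the Cx3cl1 window held TATAAA alone, at 6 to 1 bases before its RefSeq start. The Cx3cl1 window (chr8:94771930-94772179) reaches past the GENCODE gene start at 94772009, so much of it lies inside the annotated gene. A match is a match of letters and was not measured as a bound site here.

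Cxcl16 is made as a membrane protein and, once cut off, attracts Cxcr6-bearing T cells. It lies on chromosome 11 at 70453983 to 70459984, minus strand, and was the inducible member with the most reads in the controls. It had 89 and 2 reads in KD.249 and KD.251 and 65 and 1 in KD.253 and KD.255, against 19, 16, 14 and 14 in eGFP.250, eGFP.266, eGFP.254 and eGFP.268. The normalized counts were 45.6, 5.8, 42.8 and 15.6 in the knockdown libraries, against 9.8, 7.7, 8.1 and 6.2 in the controls. Both deep knockdown libraries and KD.255 lay above the controls, the last on 1 read, and KD.251 lay below them on 2 reads. The counting intervals of both shallow libraries, 0.699 to 20.8 in KD.251 and 0.394 to 86.7 in KD.255, spanned the control values.

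The log2 difference of Cxcl16 was 1.30 (95% interval -0.20 to 2.80, limma adjusted p = 0.873), and edgeR gave 2.08 (adjusted p = 0.0611). Neither passed. In DESeq2 it did (adjusted p = 0.0239), as did 1.3% of all tested genes in that direction. Pooled reads were 157 in the knockdown group and 63 in the control group, a ratio of 5.13 (interval 3.81 to 6.99). Cxcl16 shares 552 exon bases with Zmynd15 on the opposite strand, which had 1, 0, 4 and 1 reads in the knockdown libraries, against 8, 1, 1 and 1 in the controls.

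Ccl12 (MCP-5) and Ccl2 (MCP-1) are ligands of Ccr2, the receptor of inflammatory monocytes, and lie in the same cluster of chromosome 11, Ccl2 at 82035571 to 82037453 and Ccl12 at 82101845 to 82103400, both on the plus strand. Ccl12 had 48 and 0 reads in KD.249 and KD.251 and 46 and 3 in KD.253 and KD.255, against 3, 5, 6 and 4 in eGFP.250, eGFP.266, eGFP.254 and eGFP.268. The normalized counts were 24.6, 0, 30.3 and 46.7 in the knockdown libraries, against 1.6, 2.4, 3.5 and 1.8 in the controls. KD.251 alone overlapped the controls. Ccl12 differed by 2.12 on the log2 scale (95% interval -0.42 to 4.66, limma adjusted p = 0.873), and edgeR called it (3.34, adjusted p = 0.0184). The pooled read ratio of Ccl12 was 11.1 (97 reads against 18, interval 6.67 to 19.5).

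Ccl2 was the lowest member. It had 18 reads in KD.249, 0 in KD.251, 18 in KD.253 and 0 in KD.255, against 0, 1, 0 and 0 in the controls, which is 9.2, 0, 11.9 and 0 normalized counts in the knockdown libraries, against 0, 0.5, 0 and 0. A count of 0 in KD.255 allows more than the level of either deep knockdown library, so that library says nothing about Ccl2. With a mean under 10 normalized counts, Ccl2 was the only member left out by the filter on low values. In edgeR on all genes with a read, an alternative added after the data were seen, Ccl2 passed (log2 difference 5.30, adjusted p = 2.84e-05), and limma on the same genes gave 1.62 (adjusted p = 0.827). The pooled ratio was 74.2 from 36 reads against 1 (interval 12.5 to 3010).

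Counted over the members, 2 of the 8 tested were called higher by limma (Ccl5 and Cxcl10) and none lower, where 0.103% of all 12681 tested genes were called, all of them higher. edgeR called 4 of the 8 higher (Cxcl9 and Ccl12 in addition), where 0.915% of all tested genes were called higher. In edgeR on all genes with a read, all 6 inducible members and none of the 3 constitutive ones were called, where 1.88% of genes were called higher. The number of members whose groups did not overlap was 2 of 8, again Ccl5 and Cxcl10, with 2.28% of tested genes higher without overlap. The median log2 difference of the 8 members was 1.71, beside -0.03 over all tested genes, and 5 of 8 were above 0, beside 44.3% of all genes. The 5 tested inducible members had control means of 0.504 to 7.96, under the filter of 10. They entered the test through their knockdown libraries, so differences above 0 were largely set in advance by the filter. These counts describe the members and are not a test of the set. Leaving out both shallow libraries KD.251 and KD.255, limma called Ccl5, Cxcl10, Cxcl9, Cxcl16 and Ccl12 (adjusted p 0.000465, 0.00212, 0.00213, 0.00669 and 0.0130), where 1.48% of all tested genes were called higher.

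**Figure D2:**
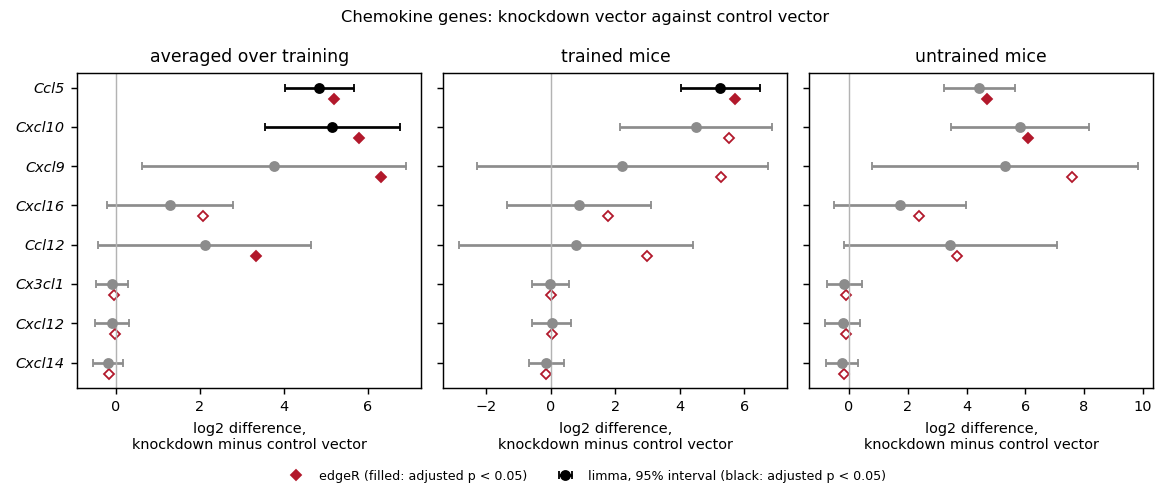
Log2 difference (horizontal axis, knockdown minus control vector) for the 8 tested chemokine genes, averaged over training, in trained mice and in untrained mice. Circles are limma estimates with 95% intervals, black where the adjusted p was under 0.05, and diamonds are edgeR estimates, filled where they passed. Averaged over training, the circles of Ccl5 and Cxcl10 are black at 4.84 and 5.15, and the intervals of Cx3cl1, Cxcl12 and Cxcl14 span 0.

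Within each training state the 5 tested inducible genes, which passed the filter through their knockdown libraries, had limma differences above 0, with wider intervals. In trained mice, Ccl5 was higher in knockdown libraries by 5.25 on the log2 scale (SE 0.54, limma adjusted p = 0.0499), and it was the only gene called, 0.00789% of those tested. That call was lost without KD.249 (adjusted p = 0.9995), KD.251 (0.0917), eGFP.250 (0.426), eGFP.266 (0.250), eGFP.254 (0.105) or eGFP.268 (0.0870). edgeR gave 0.000364 for Ccl5, the only member it called in trained mice, where 0.0315% of all genes passed. In untrained mice Ccl5 differed by 4.43 (SE 0.54) with an adjusted p of 0.168, and limma called no gene (0%). edgeR called Ccl5 and Cxcl10 there (adjusted p = 0.00200 and 0.0363), where 0.181% of genes passed. At an unadjusted p under 0.05, limma had 3 members in untrained mice and 2 in trained mice, where 4.5% and 2.36% of all genes passed. edgeR had 5 members in each, where 3.92% and 4.83% passed.

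The limma estimate of Cxcl10 was 4.49 in trained and 5.81 in untrained mice, that of Cxcl9 was 2.22 and 5.30, that of Cxcl16 was 0.88 and 1.73, and that of Ccl12 was 0.78 and 3.45. In edgeR, which weights a library by its reads, the trained and untrained estimates were 5.51 and 6.09 for Cxcl10, 5.28 and 7.58 for Cxcl9, 1.79 and 2.39 for Cxcl16, and 2.99 and 3.68 for Ccl12. These gaps were tested as an interaction, and none passed. The interaction was -1.31 for Cxcl10 (95% interval -4.63 to 2.01), -3.08 for Cxcl9 (-9.47 to 3.31), -0.86 for Cxcl16 (-4.02 to 2.31) and -2.67 for Ccl12 (-7.79 to 2.44), all with an adjusted p of 1.00. The edgeR interaction was closer to 0 (-0.58 for Cxcl10, -2.30 for Cxcl9, -0.60 for Cxcl16 and -0.69 for Ccl12, each with an adjusted p of 1.00), so the size of these gaps depended on the scale and the tool. Intervals this wide leave large differences in either direction possible.

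The trained estimates carry the split between the trained knockdown libraries. Ccl5 was alike in KD.251 and KD.249, with a ratio of 0.850 (interval 0.588 to 1.20). Cxcl10 was lower in KD.251, at 0.215 of KD.249 (0.0915 to 0.431), as was Cxcl16 at 0.127 (0.0151 to 0.471). Cxcl9 and Ccl12 had no read in KD.251, with upper limits of the ratio of 0.208 and 0.450. All 4 intervals end below 1, whereas the upper limit of 1.28 for Ccl2 lies above it. The constitutive members went the other way or were level: 1.36 for Cx3cl1 (1.23 to 1.50), 1.49 for Cxcl14 (1.17 to 1.89) and 1.08 for Cxcl12 (0.825 to 1.39).

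KD.251 also stood apart in other genes. Acss2 itself was 57.7 normalized counts in KD.251 and 25.6 in KD.249. The transcription factor gene Irf7, which carries interferon signals, had a ratio of 0.186 (interval 0.0951 to 0.329), KD.251 over KD.249. The part of these in the split was not tested.

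**Figure D3:**
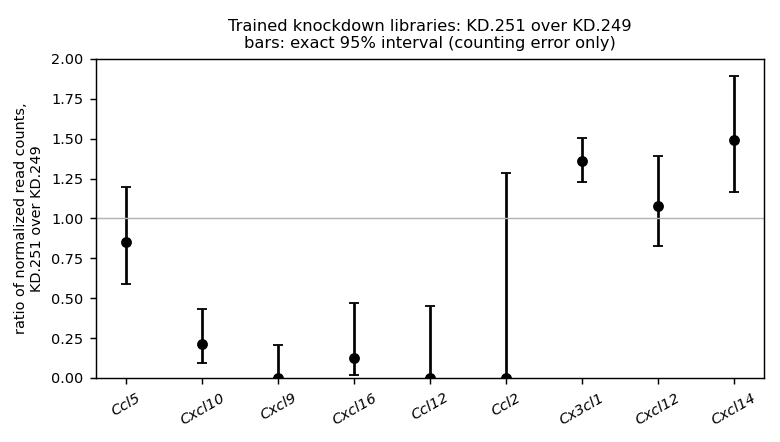
Ratio of normalized read counts in trained knockdown library KD.251 over trained knockdown library KD.249 (linear vertical axis) for the 9 chemokine genes. Bars are exact 95% intervals for counting error only, and the line marks a ratio of 1. Ccl5 sits at 0.850 with an interval across 1, the intervals of Cxcl10, Cxcl9, Cxcl16 and Ccl12 end below 1, and Cx3cl1 and Cxcl14 lie above 1.

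The constitutive chemokines showed no called difference between vectors. Cx3cl1 (fractalkine; chromosome 8, 94772009 to 94782427, plus strand) had 1013.9 and 1378.9 normalized counts in KD.249 and KD.251 and 1786.1 and 1259.8 in KD.253 and KD.255, against 1364.6, 1033.3, 1850.6 and 1507.0 in eGFP.250, eGFP.266, eGFP.254 and eGFP.268. The number of reads behind these was 1981, 478, 2710 and 81 in the knockdown libraries, against 2639, 2160, 3182 and 3398 in the controls. The ranges nearly coincided. The log2 difference was -0.08 (95% interval -0.46 to 0.30, limma adjusted p = 0.957).

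Cxcl12 (SDF-1; chromosome 6, 117168535 to 117181367, plus strand) had 193.0, 207.7, 301.9 and 202.2 normalized counts in the knockdown libraries, from 377, 72, 458 and 13 reads. The controls had 202.2, 189.4, 342.0 and 241.3, from 391, 396, 588 and 544 reads. The log2 difference was -0.09 (95% interval -0.49 to 0.31, adjusted p = 0.947). Cxcl14 (chromosome 13, 56288643 to 56296551, minus strand), a chemokine whose receptor is not settled, had 172.0, 256.7, 268.2 and 233.3 normalized counts in the knockdown libraries, from 336, 89, 407 and 15 reads. Its controls had 227.5, 232.5, 308.8 and 279.4, from 440, 486, 531 and 630 reads. The log2 difference was -0.18 (95% interval -0.53 to 0.17, adjusted p = 0.873).

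Per kilobase of annotated exon (GENCODE M21), the order of the members differed between the vectors. In knockdown libraries Cx3cl1 was highest with 346 ± 82.0 normalized counts per kb and stood apart from the next gene. Cxcl14 followed with 127 ± 23.5 and Ccl5 with 118 ± 10.6, and these ranges overlapped. Ccl5 stood apart from Ccl12 at 47.3 ± 36.0 (SD, n = 4). After Ccl12 came Cxcl10 (37.9), Cxcl12 (27.7), Cxcl9 (13.2), Cxcl16 (9.08) and Ccl2 (4.63), each overlapping its neighbour.

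In control libraries Cx3cl1 (366 ± 86.2 per kb), Cxcl14 (143 ± 21.3) and Cxcl12 (29.8 ± 8.45) led and each stood apart from the next. They were followed by Ccl12 (4.29), Ccl5 (3.32) and Cxcl16 (2.63), which overlapped, and then by Cxcl10 (0.569), Cxcl9 (0.167) and Ccl2 (0.105), which also overlapped (SD, n = 4). Ccl5, at the level of Cxcl14 in knockdown hippocampus, was thus among the low chemokines in the controls.

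**Figure D4:**
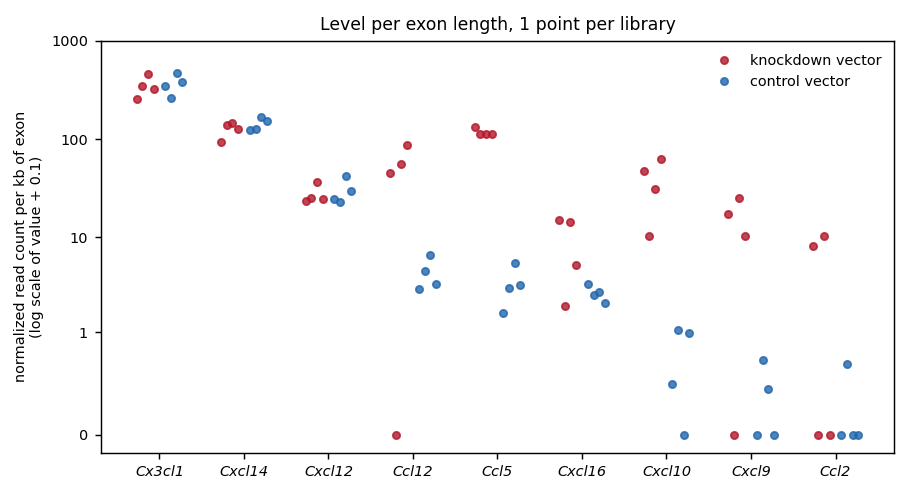
Normalized read count per kilobase of annotated exon (log scale of the value plus 0.1), 1 point per library, for the 9 chemokine genes with knockdown libraries left of control libraries. The constitutive Cx3cl1, Cxcl14 and Cxcl12 lie at the same height for both vectors, and the 4 knockdown points of Ccl5 lie at the height of Cxcl14.

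Training gave no call among the members. Averaged over vector, all 8 tested members had a limma log2 difference, trained minus untrained, below 0. For Ccl12, Cx3cl1, Cxcl12 and Cxcl14 it was below 0 in all alternatives run, whereas it reached 0.05 for Ccl5 (with voom), 0.50 for Cxcl10, 0.23 for Cxcl9 and 0.47 for Cxcl16 in at least 1 alternative. Their median was -0.37, beside 0.03 over all tested genes, of which 44.9% were below 0. None of the 8 passed in limma or edgeR, which called 0% of all genes each. DESeq2 called 0.073% of genes and none of the 5 members to which it gave an adjusted p, with none given for Ccl12, Cxcl16 and Cxcl9. At an unadjusted p under 0.05 there were 2 members in each tool (Cx3cl1 and Cxcl12), where 4.86% of all genes passed in limma, 6.92% in edgeR and 6.14% in DESeq2. No member had groups without overlap, where 1.62% of tested genes were lower in all trained libraries than in any untrained one.

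The constitutive members had the narrowest intervals of the training comparison. Cx3cl1 had 1013.9, 1378.9, 1364.6 and 1033.3 normalized counts in the trained libraries KD.249, KD.251, eGFP.250 and eGFP.266, against 1786.1, 1259.8, 1850.6 and 1507.0 in the untrained libraries KD.253, KD.255, eGFP.254 and eGFP.268. The log2 difference, trained minus untrained, was -0.42 (95% interval -0.80 to -0.03, adjusted p = 0.873). For Cxcl12 it was -0.43 (-0.83 to -0.03, adjusted p = 0.873) and for Cxcl14 -0.30 (-0.66 to 0.05, adjusted p = 0.873). For each of the 3 genes, KD.255 was the only untrained library inside the trained range, on 81 reads of Cx3cl1, 13 of Cxcl12 and 15 of Cxcl14. Without KD.255 the log2 differences were -0.53, -0.57 and -0.35, each with an adjusted p of 0.716. Over all alternatives the adjusted p lay between 0.349 and 0.982 for Cx3cl1, between 0.235 and 0.982 for Cxcl12 and between 0.502 and 0.982 for Cxcl14.

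Within each vector the training differences of the 3 constitutive genes had the same sign. They were -0.34 in knockdown and -0.49 in control mice for Cx3cl1, -0.30 and -0.55 for Cxcl12, and -0.25 and -0.35 for Cxcl14. The interaction was 0.15 for Cx3cl1 (95% interval -0.68 to 0.97), 0.25 for Cxcl12 (-0.61 to 1.11) and 0.10 for Cxcl14 (-0.68 to 0.88). No member passed within a vector or in the interaction (limma and edgeR called 0% of genes in all 3). At an unadjusted p under 0.05 limma had no member in control mice, knockdown mice or the interaction, where 1.43%, 4.48% and 0.883% of all genes passed. edgeR had 1 member in control mice and none in the others, where 3.34%, 2.27% and 0.773% of genes passed.

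The receptors that these ligands bind were mostly low. Of the receptors of Ccl5, Ccr1 had no read in the knockdown libraries, against 1, 2, 0 and 1 in the controls, and Ccr3 had 1, 0, 1 and 0 reads in the knockdown libraries and none in the controls. Cx3cr1, the receptor of Cx3cl1 and a microglial marker, had 291.7, 196.2, 331.5 and 248.8 normalized counts in the knockdown libraries, against 151.0, 197.6, 215.8 and 187.2 in the controls. The ranges met at KD.251. The log2 difference was 0.49 (95% interval 0.08 to 0.90, limma adjusted p = 0.811). Cxcr3, the receptor of Cxcl9 and Cxcl10, had 9 and 12 reads in KD.249 and KD.253 and none in KD.251, KD.255 or any control library. Cxcr6, the receptor of Cxcl16, had 2 and 3 reads in KD.249 and KD.253 and none elsewhere. Ccr2, the receptor of Ccl2 and Ccl12, had 13, 0, 5 and 0 reads in the knockdown libraries, against 2, 3, 4 and 2 in the controls.

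For Cxcl12, the signalling receptor Cxcr4 had 7, 4, 11 and 0 reads in the knockdown libraries, against 7, 4, 6 and 13 in the controls. The scavenging receptor Ackr3 had 40.9, 46.2, 20.4 and 0 normalized counts, against 44.0, 33.5, 37.2 and 31.5, where the 0 of KD.255 allows up to 46.7. Its log2 difference was -1.38 in limma (95% interval -3.43 to 0.68, adjusted p = 0.873) and -0.28 in edgeR (adjusted p = 0.952). Ackr1, a decoy receptor of endothelium and red cells that takes up many inflammatory chemokines, had 35.3, 20.2, 42.2 and 15.6 normalized counts, against 44.0, 30.6, 45.9 and 39.5. Its log2 difference was -0.57 (95% interval -1.39 to 0.24, adjusted p = 0.873).

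Of the 32 other chemokine genes listed, 12 had no read in any library, as had 3 of the 22 receptor genes. The other chemokine and receptor genes with a mean of at least 10 normalized counts numbered 8. They were Ccl6, Ccl9, Ccl25, Ccl27a, Ccl28, Cx3cr1, Ackr1 and Ackr3. limma and edgeR called none of them in any of the 7 comparisons. Among the chemokines, Ccl27a, which in skin attracts Ccr10-bearing T cells, had 33.3, 26.0, 29.0 and 31.1 normalized counts in the knockdown libraries, against 34.1, 45.9, 48.3 and 45.7 in the controls. Ccl27a has near-identical copies in the mouse genome, so its counts are uncertain. The groups did not overlap, and the log2 difference was -0.52 (95% interval -1.08 to 0.03, limma adjusted p = 0.873). The median log2 difference was 0.08 over the 5 other chemokines tested and -0.57 over the 3 receptors, beside -0.03 over all genes.

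In edgeR on all genes with a read, 39 of these chemokine and receptor genes could be tested and 5 were called higher in knockdown mice, where 1.88% of genes were. Cxcl13, which attracts B cells through Cxcr5, had 84, 1, 39 and 0 reads in KD.249, KD.251, KD.253 and KD.255, against 2, 4, 0 and 1 in the controls (log2 difference 4.73, adjusted p = 5.51e-10). Ccl3, a ligand of Ccr1, had 33, 3, 21 and 2 reads, against 1, 1, 5 and 4 (3.54, adjusted p = 1.37e-05). Cxcr3 (5.96, adjusted p = 0.000480), Ccl7, a ligand of Ccr2 (4.82, 0.0430), and Cxcl11, the neighbour of Cxcl10 annotated as a polymorphic pseudogene (3.15, 0.0440), were the others. Cxcl13, Cxcr3, Ccl7 and Cxcl11 had at most 1 read in each shallow library, so these calls rested on KD.249 and KD.253. A fitted difference of Ccl7 or Cxcr3, which had no control read, depends on the fit and is not a bound. On all genes with a read, edgeR also called Ttr lower (adjusted p = 1.32e-10), which edgeR on the filtered genes did not (0.249). Among the controls, choroid plexus markers were high in eGFP.250 and eGFP.254 only. For training averaged over vector this fit called 77 genes, where edgeR on the filtered genes called 0. Every call of this fit in the text carries that limit.

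**Figure D5:**
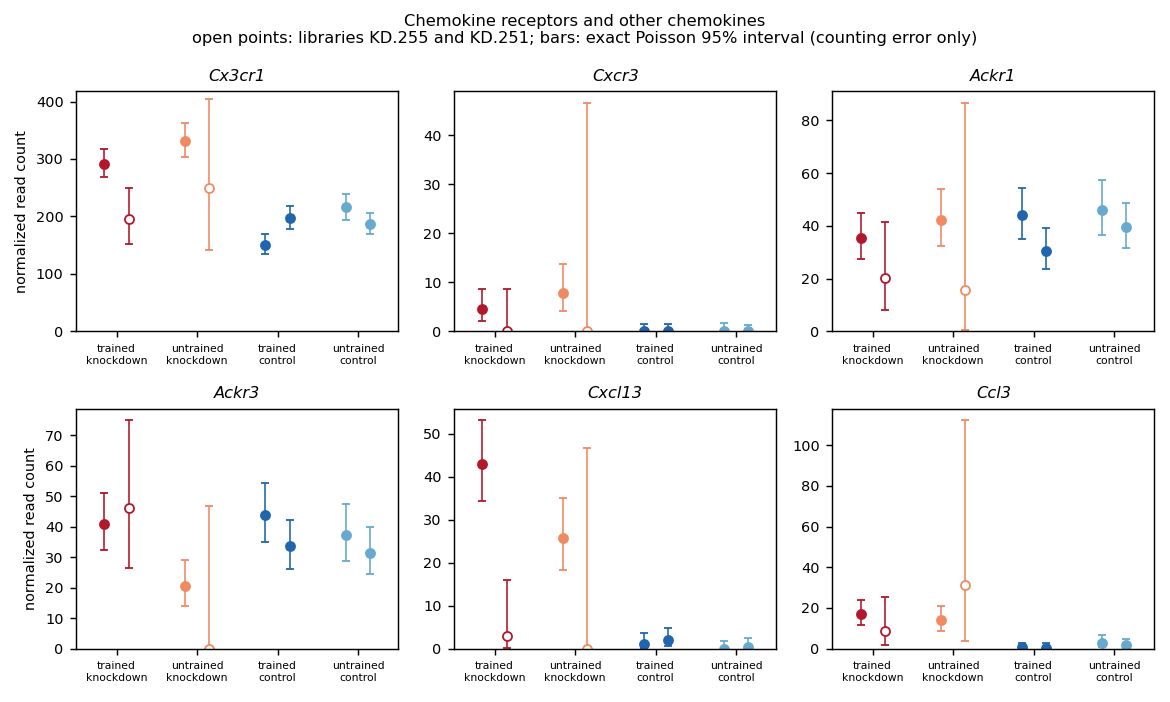
Normalized read count (linear vertical axis) of 4 chemokine receptor genes and 2 other chemokine genes, 1 point per library, for trained knockdown, untrained knockdown, trained control and untrained control. Bars are exact Poisson 95% intervals for counting error only, ending at 3 reads where the count is 0, and open points are KD.251 and KD.255. The knockdown points of Cx3cr1 lie between 196.2 and 331.5 and meet the control points of 151.0 to 215.8 at KD.251, and Cxcr3 has reads in KD.249 and KD.253 only.

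Genes that act before and after the chemokines were read from 2 lists. The first list, 15 genes that act on chemokine induction, held interferon regulatory factors, Stat2, NF-kB subunits, cytokines, and the NF-kB inhibitors Nfkbia and Tnfaip3. Of these genes 10 were tested, 9 of the 10 had a log2 difference above 0, and the median was 0.88. The inhibitors Nfkbia (0.49) and Tnfaip3 (0.72) were among the 9. Of the 10, limma called 1 and edgeR 2, where 0.103% and 0.915% of all genes were called higher. Irf7 had 186.3, 34.6, 195.1 and 186.6 normalized counts in the knockdown libraries, against 5.7, 6.2, 8.7 and 8.0 in the controls (log2 difference 3.96, limma adjusted p = 0.0210). Irf9, a DNA-binding part of a complex formed after interferon signals, had 259.5, 95.2, 261.0 and 186.6, against 69.8, 64.1, 64.0 and 39.9 (1.66, limma adjusted p = 0.195, edgeR 0.00862), and its groups did not overlap. The cytokine genes themselves were near the floor: Ifng had 1 read in all, in KD.251, and Ifnb1 had 1 read in all, in KD.249.

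Of 4 proteases that cut chemokines, 3 were tested, and edgeR called 1 higher (0.915% of all genes). This was Ctss, the lysosomal protease cathepsin S, which can release Cx3cl1 from membranes. Ctss had 1294, 594, 1263 and 918 normalized counts in the knockdown libraries, against 367, 379, 309 and 407 in the controls (log2 difference 1.42, limma adjusted p = 0.110, edgeR 0.00573). The groups did not overlap. Adam10, a sheddase of Cx3cl1 and Cxcl16, had 537.9, 591.4, 560.9 and 793.2, against 424.5, 419.1, 407.1 and 463.9 (0.52, limma adjusted p = 0.468).

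Markers of other cell types also differed between libraries. The 10 T cell markers summed to 54.8, 8.65, 46.8 and 77.8 normalized counts in KD.249, KD.251, KD.253 and KD.255, from 107, 3, 71 and 5 reads, against 4.78 to 9.31 in the controls. KD.251 lay within the control range on 3 reads of 2.88 normalized counts each. So few reads cannot tell a raised level from a control level. The defining markers Cd3e, Cd3g and Cd3d had 5, 29 and 2 reads in KD.249 and 11, 18 and 2 in KD.253, and all 3 were at 0 in KD.251. None of the 10 passed the filter on low values, and edgeR on all genes with a read called 5 of them higher (Cd2, Cd3e, Cd3g, Cd4 and Cd8a), beside 1.88% of all genes. Of 12 microglial markers, all 12 had a log2 difference above 0 (median 0.73), edgeR called C1qa and C1qc higher, beside 0.915% of all genes, and their sum was 2067, 1540, 2247 and 2193 in the knockdown libraries, against 1113 to 1311 in the controls.

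The 4 B cell markers had 21, 0, 19 and 0 reads in the knockdown libraries, against 2 to 4 in the controls. The 7 monocyte and neutrophil markers summed to 13.8, 0, 13.8 and 0 normalized counts in the knockdown libraries, against 4.31 to 7.56, with S100a8 at 0 in every library. The sums of perivascular macrophage, astrocyte, endothelial, mural, principal neuron and inhibitory neuron markers overlapped between the vectors. Among the 6 astrocyte markers, Gfap, a filament gene of reactive astrocytes, had 5387, 2282, 4875 and 4090 normalized counts in the knockdown libraries, against 1797, 2264, 2209 and 1886 in the controls. It was called in edgeR on all genes with a read (log2 difference 1.02, adjusted p = 5.02e-05), but not in limma (0.96, adjusted p = 0.348) or edgeR on the filtered genes (1.04, adjusted p = 0.0627). The water channel gene Aqp4 had 1520, 1163, 1288 and 1011, against 745, 1074, 782 and 858 (0.52, limma adjusted p = 0.598). The part of T cell, microglial and astrocyte RNA in the levels of the chemokines was not tested, and the labels name no cell sort.

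By Pearson correlation of log2(normalized count + 1) over the 8 libraries, among 9130 genes with a mean of at least 50, the genes nearest to each member were as follows, as a description of libraries that share vector and depth. Nearest to Ccl5 were Ifit3 (r = 0.965), Plek (0.964) and Rsad2 (0.955). Nearest to Cxcl10 were Ddx60 (0.995), Osmr (0.974) and Ifit3 (0.973), and to Cxcl9 Gbp5 (0.994), Stat2 (0.991) and Gbp2 (0.988). Ifit3, Rsad2, Gbp5 and Gbp2 are known interferon-induced genes. Nearest to Cxcl16 were Lcp1 (0.970), Trim12c (0.966) and Fyb (0.962), and to Ccl12 Ash2l (0.991), Ly6a (0.989) and Bin2 (0.981).

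The constitutive members had other neighbours. Nearest to Cx3cl1 were Btbd2 (0.983), Grina (0.982) and Cntfr (0.973), to Cxcl12 Bcan (0.987), Mef2d (0.983) and Plppr2 (0.983), and to Cxcl14 Rap1gap2 (0.988), Gps1 (0.978) and Lynx1 (0.950). No neighbours were sought for Ccl2, which was below the filter on low values.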

How the data were processed

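The authors deposited 1 table of normalized values (a signal per gene and library) for 8 hippocampal libraries. Per the submitters' processing notes, the tools were bcl2fastq 02.14.01.07, STAR 2.3.0, HTSeq 0.6.1, DESeq and bedtools, with build mm10; annotation, strand setting and order of steps are not given in any source used here. In 100% of values, to a relative tolerance of 1e-06, the deposited signal was a whole multiple of the column's smallest value above 0, which gave back whole reads. The table held 24503 entries, of which 5 were counter summaries (34.5% to 39.5% of reads, left out of library sizes and tests) and 5869 were genes without a read.

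In R 4.3.3, log2(normalized count + 1) was fitted with limma-trend (limma 3.58.1) as the main test, for 12681 genes with a mean of at least 10, adjusted over all of them by Benjamini-Hochberg at 0.05. Within-group comparisons and the interaction used 4 group means (4 residual degrees of freedom), the averaged comparisons an additive model (5). edgeR 4.0.16 (quasi-likelihood), DESeq2 1.42.0 and voom ran on the recovered reads as alternatives. The code was tested on simulated counts. Read ratios carry exact conditional 95% intervals, and n = 4 libraries per vector. Chi-square per degree of freedom between the libraries of a group was 2.16 to 36.0, so no pair was averaged as 1 library; separate libraries of the same RNA would not show in this check. Gene positions and exon lengths are from GENCODE M21 (GRCm38).

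The members and gene lists were chosen with earlier results of these data known. The text names all 9 members, other chemokines and receptors with a mean of at least 10 or a call, Acss2, the marker and pathway lists, and the 3 nearest genes of each member. Other genes of the lists were named after their values were seen. Some genes of the lists are not reported here.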

Additional observations from a re-analysis of the deposited data

Results flagged for a closer look

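Among groups of 4 libraries, 3 values stood far from the rest by a gap test that flags about 1 group in 20 by chance. Ccl5 in KD.249, 128.976 normalized counts (252 reads), lay above the other 3 knockdown libraries, with a gap of 0.898 of the whole range. Its ratio to KD.253 was 1.20 (95% interval 0.982 to 1.47), so these libraries did not differ beyond counting error. Cxcl12 in KD.253, 301.855 normalized counts (458 reads), lay above the other knockdown libraries, with a gap of 0.865 of the range. Ccl2 in eGFP.266, 0.478 normalized counts, was the only control value above 0 and rested on 1 read.

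The training response of Ccl5 pointed in opposite directions. Both trained knockdown libraries (129.0 and 109.6 normalized counts) were above both untrained ones (107.4 and 108.9), while both trained control libraries (1.6 and 2.9) were below both untrained ones (5.2 and 3.1). The difference of the responses was 0.823 on the log2 scale (95% interval -0.90 to 2.54, limma adjusted p = 1.00) and did not pass. The control values rest on 3 to 9 reads each, and KD.255 on 7.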

How the results depend on the processing

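Averaged over training, 2 members were called between vectors. The count was 4 in edgeR, 5 in DESeq2, 3 with voom, 1 at a pseudocount of 0.5, 1 at a mean of at least 50 (4 members tested), 1 to 2 leaving out each library in turn, 5 without both shallow libraries, and 0 with the library number set as a term. In 2 alternatives added after seeing the data it was 6 (edgeR, all genes with a read) and 5 (edgeR without both shallow libraries). In untrained mice 0 were called, against 2 in edgeR, 2 in DESeq2, 1 with voom, 1 at a pseudocount of 5, 0 to 2 leaving out each library in turn (2 without KD.253, where KD.255 alone stands for its group and is assumed to vary like the others), 2 without both shallow libraries, and 6 and 4 in the added fits. In trained mice 1 was called, against 2 in DESeq2, 0 at a pseudocount of 0.5, 0 with all genes with a read, 0 at a mean of at least 50, 0 to 1 leaving out each library in turn, 2 without both shallow libraries, 0 with the number set as a term, and 6 and 4 in the added fits. No member was called for training or the interaction under any alternative run. Leaving out each library in turn, Cx3cl1 ranged from -0.184 to 0.0351 (above 0 without KD.255) and Cxcl12 from -0.182 to 0.0480 (above 0 without KD.255 or eGFP.254). Cxcl12 was also above 0 with voom (0.0171) and without both shallow libraries (0.0255 in limma, 0.0247 in edgeR). In trained mice, Cxcl9 ranged from -0.64 to 5.09, Cxcl16 from -0.52 to 2.27 and Ccl12 from -1.56 to 3.12, each below 0 only without KD.249, where KD.251 alone remains. Over all tested genes, 13 calls between vectors became 122 in edgeR, 195 in DESeq2, 157 with voom, 212 without both shallow libraries, 0 with the number set as a term, 1 to 100 leaving out each library (100 without KD.251), 232 in edgeR without the shallow libraries and 555 in edgeR on all genes with a read. In untrained mice, 0 calls over all genes became 1293 without KD.253, 67 without both shallow libraries, and 228 and 100 in the added fits. In trained mice, 1 became 79 without both shallow libraries, and 361 and 94 in the added fits. For training averaged over vector, 0 became 8 in DESeq2 and 77 in edgeR on all genes with a read. In control-vector mice the training calls became 4 and 111 in these fits. The interaction had 8 calls in edgeR on all genes with a read. Without KD.253, 1242 genes were called for training in knockdown mice and 710 for the interaction. The cause was not tested. No paired analysis was possible because the columns carry library numbers that no label ties to a replicate number. KD.255 limits any gene below 46.7 normalized counts.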

Other observations

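Among the inducible members, those other than Cxcl16 sit beside further chemokine genes. On chromosome 5, Cxcl11, next to Cxcl10, had 7, 0, 11 and 0 reads in KD.249, KD.251, KD.253 and KD.255, against 0, 0, 2 and 2 in eGFP.250, eGFP.266, eGFP.254 and eGFP.268. On chromosome 11, between Ccl2 and Ccl12, Ccl7 had 4, 0, 5 and 0 reads in the knockdown libraries and none in the controls, and Ccl11, known for attracting eosinophils, had 0, 1, 0 and 0, against 1, 3, 0 and 0. Ccl8, next to Ccl12, had no read in any library. Beside Ccl5, Ccl9 had 69, 0, 28 and 2 reads in the knockdown libraries, against 16, 26, 17 and 19, and Ccl6 had 35, 5, 28 and 0, against 18, 9, 21 and 12. Ccl4 had 2, 0, 6 and 0 reads, against 3, 1, 0 and 1 in the controls (edgeR on all genes with a read, log2 difference 1.54, adjusted p = 0.843), while its neighbour Ccl3 was called.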
